A study of Mus musculus with 13 samples.

Results

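The genes that cut, protect and cross-link the extracellular matrix were followed across 3 skeletal muscles of mice with muscular dystrophy with myositis (*mdm*). They were taken by symbol as every matrix metalloproteinase (Mmp), tissue inhibitor of metalloproteinases (Timp), a disintegrin and metalloproteinase with thrombospondin motifs (Adamts) and lysyl oxidase (Lox and Loxl1 to Loxl4). The GENCODE annotation of the mouse genome holds 51 such genes, and 42 of them are among the 17924 genes of the files: 15 Mmp, 4 Timp, 18 Adamts and 5 lysyl oxidase genes. All 42 passed the filter on low values and were tested with 17069 genes. The other 9 (Mmp1a, Mmp1b, Mmp7, Mmp10, Mmp20, Mmp21, Mmp25, Mmp27 and Adamts18) were not analysed here.

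RNA of whole muscles was sequenced in 13 libraries, 5 of extensor digitorum longus (EDL), 5 of psoas and 3 of soleus. EDL and psoas are muscles rich in fast-twitch fibers, and soleus is rich in slow-twitch fibers. Every library came from a mouse homozygous for the recessive *mdm* deletion in titin (Ttn), bred in a B6C3Fe a/a-Ttn *mdm*/J colony, so the groups share genotype and strain and differ in muscle. Wild-type libraries are not analysed here, and no value below says how the mutation changed a gene. The mice were 38, 38, 42, 38 and 38 days old for EDL replicates 1 to 5, 29, 38, 42, 38 and 38 days for psoas and 33, 36 and 38 days for soleus. The muscles were removed whole, so tendon, nerve, fat and blood cells attached to them were sequenced with the fibers. The study drew all its libraries from fewer mice than libraries, so some muscles share a mouse. The labels also carry a code of unstated meaning: EDL replicate 1 has T1, psoas replicate 1 has T3, EDL and psoas replicates 2 and soleus replicates 1 and 2 have T4, replicates 3 of EDL and psoas have T5, and the rest have T6.

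As background, matrix metalloproteinases are zinc enzymes that are made as inactive precursors and together can cut every major protein of the matrix. Collagenases open the collagen triple helix, gelatinases digest the unwound chains, stromelysins cut proteoglycans and activate other precursors, and membrane-anchored members work at the cell surface. TIMPs bind the active site of these enzymes. ADAMTS enzymes are secreted proteases: one group cuts the large proteoglycans aggrecan and versican, another removes the amino-terminal propeptide of fibrillar collagens, and others act on fibrillin microfibrils, cartilage oligomeric matrix protein or von Willebrand factor. Lysyl oxidases start the cross-links between collagen or elastin chains. In dystrophic muscle these families take part in fibrosis, in the passage of inflammatory cells and in the remodelling around regenerating fibers.

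Library totals ran from 9114176 to 48835209 counts, and 41 or 42 of the 42 genes had at least 1 count in every library. Levels are given as normalized counts, which are read counts divided by the library's size factor, and levels of different genes are compared only after division by exon length (normalized counts per kilobase). Muscle labels were checked on fiber markers: Myh7, the slow myosin heavy chain, had normalized counts of 98825 to 182496 in soleus and at most 20950.4 in the other muscles. The muscles also differed in marker genes of attached tissue. Summed over 7 fiber genes, the level was 41800 to 75400 CPM (counts scaled to the TMM-normalized library total) in EDL, 14300 to 35000 in psoas and 34000 to 47300 in soleus. Summed over 6 genes of mesothelium, the lining of the body cavity, it was 2.48 to 7.04 CPM in EDL, 15.2 to 65.6 in psoas and 2.89 to 9.79 in soleus, and the mesothelial gene Bnc1 was at 0 in all 5 EDL libraries. Schwann cell genes summed to 31.5 to 81.8 CPM in EDL, 135 to 1110 in psoas and 82.7 to 252 in soleus. Adipocyte genes summed to 223 to 1150 CPM in EDL, 629 to 1390 in psoas and 2120 to 3830 in soleus. By these sums, all psoas libraries were below all EDL libraries in the fiber genes and above them in the mesothelial and Schwann cell genes. All soleus libraries were above the other muscles in the adipocyte genes. The part of these tissues in the results below was not tested.

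RefSeq promoter windows, from 250 bases before to 50 bases after an annotated start, were found for 24 of the 42 genes. The last 120 bases before the start are given for Adamts17 and Mmp15, which had the lowest p-values between psoas and EDL, and for Mmp13 and Mmp3, both in the cluster of Mmp genes on chromosome 9. Capitals mark the motifs searched, on both strands: TGANTCA, the core of the site bound by AP-1 factors; TATAAA, the element that sets the start in some promoters; the motif GGGCGG, known as the GC box; and the motif CCAAT. Coordinates are those of GRCm38.p6.

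Adamts17 (chr7:66839615-66839734, forward strand): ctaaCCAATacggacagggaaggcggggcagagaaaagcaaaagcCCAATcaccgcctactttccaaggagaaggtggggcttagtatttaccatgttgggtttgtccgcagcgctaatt
Mmp15 (chr8:95352176-95352295, forward strand): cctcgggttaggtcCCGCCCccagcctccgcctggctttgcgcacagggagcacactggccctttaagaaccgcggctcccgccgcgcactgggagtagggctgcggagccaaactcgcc
Mmp13 (chr9:7272394-7272513, forward strand): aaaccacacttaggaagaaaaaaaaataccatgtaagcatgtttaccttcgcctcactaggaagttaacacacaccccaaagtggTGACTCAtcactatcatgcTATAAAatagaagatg
Mmp3 (chr9:7445702-7445821, forward strand): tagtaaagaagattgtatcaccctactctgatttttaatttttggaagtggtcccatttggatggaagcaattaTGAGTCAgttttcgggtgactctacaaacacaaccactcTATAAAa

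The stretches of Mmp13 and Mmp3 each hold TGANTCA and, nearer the start, TATAAA, which begin 35 and 16 bases before the start in Mmp13 and 46 and 7 bases before it in Mmp3. Mmp12 and Mmp8, the other cluster genes analysed, are not printed and do not share this layout. A stretch of Mmp12 holds TGANTCA, which begins 44 bases before the start, without TATAAA. Another stretch of Mmp12 and that of Mmp8 hold none of the motifs. Mmp15 has GGGCGG on the reverse strand, and Adamts17 has CCAAT at 2 places. Over full windows, TGANTCA was found in 3 of the 24 genes (Mmp3, Mmp12 and Mmp13) and in 7.81% of all 32851 windows. TATAAA was found in 5 of 24 (Adamts1, Mmp3, Mmp8, Mmp12 and Mmp13) and in 13.6% of all windows. GGGCGG was in 17 of 24 against 35.7% of all windows, and CCAAT in 6 of 24 against 37.4%. A gene was counted if any of its windows held the motif, and a gene can have several windows. The percentages are of single windows, so for all 4 motifs the counts and percentages are not like for like. A match in these letters does not show that a factor binds there.

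Mmp2 was the most abundant gene of the set in all 3 muscles. Mmp2 encodes gelatinase A, which digests unwound collagen and basement membrane collagen. Its level was 901 ± 238 normalized counts per kilobase in EDL (SD, n = 5), 1345 ± 472 in psoas (SD, n = 5) and 898 ± 164 in soleus (SD, n = 3). Averaged over the 13 libraries, Mmp2 made up 28.9% of the summed level of the 42 genes. Lox, the founding lysyl oxidase, made up 15.8%, Adamts1, a proteoglycan-cleaving enzyme, 9.76%, and Timp2, an inhibitor that also takes part in the activation of the Mmp2 precursor, 7.09%. These 4 genes together held 61.5% of the sum. At the other end, 13 genes lay under 10 normalized counts per kilobase, on average over the 13 libraries, from Timp4 at 9.18 to Adamts19 at 0.90.

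**Figure D1:**
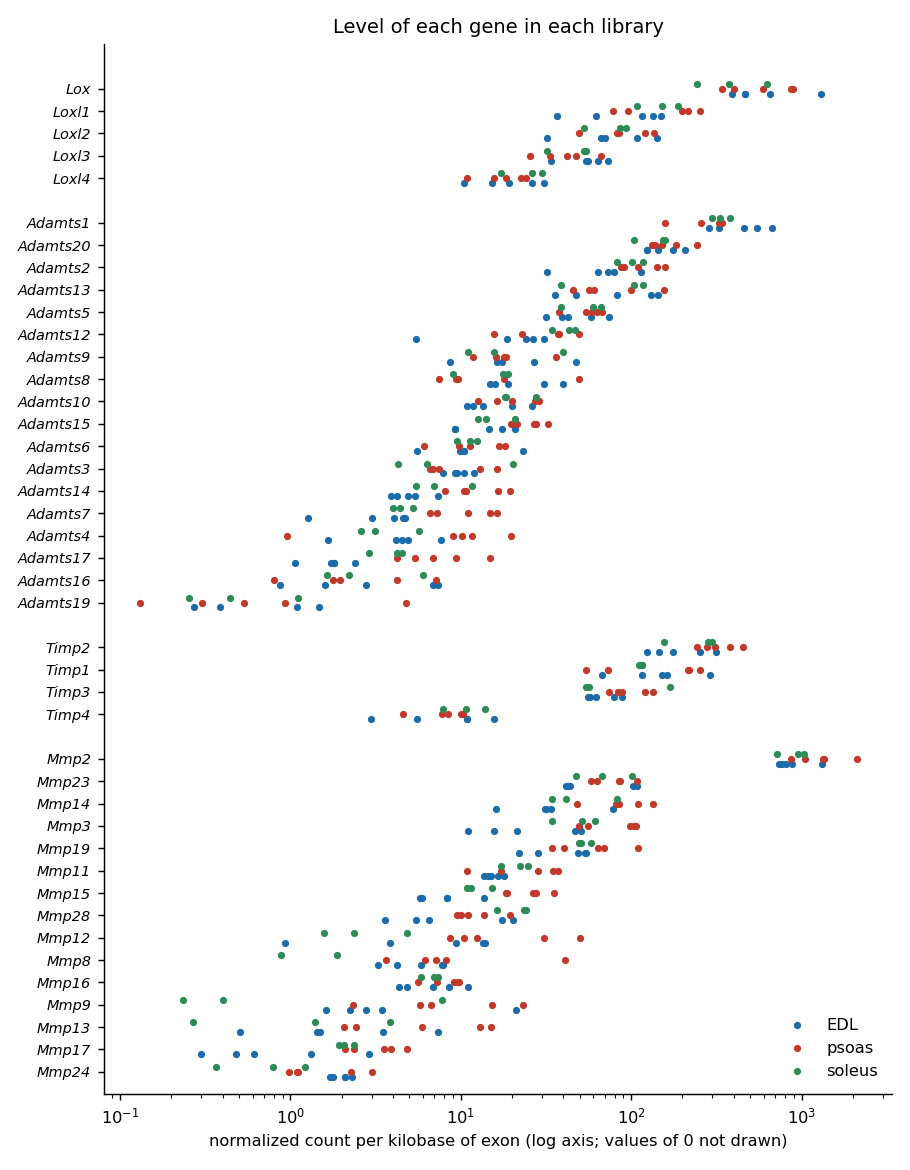
Normalized count per kilobase of exon (x axis, log scale) of each of the 42 genes (y axis, grouped by family and ordered by level) in each of the 13 libraries, with 1 point per library, blue for EDL, red for psoas and green for soleus. Values of 0 are not drawn. Mmp2 and Lox lie highest, and Adamts19 lowest, while the points of the 3 muscles overlap for most genes.

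Split by family, the Mmp genes held a median of 32.6% of the summed level in EDL, 39.4% in psoas and 36.7% in soleus. Across libraries that share was 27.3 to 39.9% in EDL, 37.6 to 55.5% in psoas and 33.8 to 41.0% in soleus. The ranges of EDL and psoas overlap. The share of the Adamts genes ran from 21 to 33.1% in EDL, 18.9 to 24.0% in psoas and 26.4 to 27.5% in soleus. The summed Timp level divided by the summed Mmp level had a median of 0.385 in EDL (0.248 to 0.524), 0.419 in psoas (0.187 to 0.431) and 0.427 in soleus (0.282 to 0.452), so Timp RNA per Mmp RNA overlapped between the muscles. This ratio leaves out the Adamts proteases. Mmp2 alone held 66.5 to 85.5% of the Mmp sum in EDL, 63.4 to 88.6% in psoas and 66.1 to 79.2% in soleus, so the Mmp share and the ratio rest largely on it.

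Psoas was compared with EDL to see where 2 muscles rich in fast-twitch fibers differ. In the study's supplement, no psoas library had a higher RNA integrity number, a measure of intact RNA, than any EDL library. The part of RNA quality in the differences was not tested. In psoas, 3 of the 42 genes were higher and 0 lower: Adamts17, Mmp15 and Adamts7. Calls required a log2 fold change beyond 1 in size, with p under 0.01 in the quasi-likelihood test of edgeR after Benjamini-Hochberg adjustment over all 17069 genes. Over all genes tested, 2.43% were called higher and 2.5% lower in psoas, and 3 of 42 is 7.14%. With the replicate number as a block, which takes same-numbered libraries as pairs, 5 genes were called, where 3.74% of all genes were called higher. They were the same 3 and also Adamts14 and Mmp3. These pairs were read from the data and are not given by the design. The ages of EDL and psoas replicate 1 differ (38 and 29 days), and soleus numbers did not pair as a set. DESeq2's Wald test called 6 genes higher, those 5 and Mmp14, where it called 4.76% of all genes higher. The replicate block on EDL and psoas libraries alone gave 6 genes against 4.11% of all genes, and a block on the label code gave 6 genes against 3.37%, the same 3 with Mmp3, Mmp17 and Loxl1. At an adjusted p under 0.05 and any fold change, 7 of 42 genes passed (16.7%), all higher in psoas, where 18.1% of all genes passed in either direction and 9.06% with a higher level in psoas. In bulk RNA of whole muscle, more cells of a type and more RNA per cell cannot be told apart.

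Adamts17 (ENSMUSG00000058145, chr7:66839735-67153171 on GRCm38, forward strand) encodes an enzyme linked to fibrillin microfibrils. Its normalized counts were 14.1, 8.29, 13.9, 18.5 and 13.5 in EDL replicates 1 to 5, 41.9, 72.6, 33.0, 116 and 53.0 in psoas replicates 1 to 5 and 22.3, 35.0 and 32.7 in soleus replicates 1 to 3. All psoas libraries lay above all EDL libraries, and the soleus libraries lay above EDL with only soleus replicate 2 inside the range of psoas. The psoas-to-EDL log2 fold change was 2.22 ± 0.37 (SE), or 4.65-fold, with an adjusted p of 0.00245 by the quasi-likelihood test of edgeR. The call held in all 22 alternative fits that tested the gene, including each of the 13 that left out a library. Within each label code that holds both muscles, the difference in mean log2 CPM was 2.90 in T4, 1.15 in T5 and 2.22 in T6.

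Mmp15 (ENSMUSG00000031790, chr8:95352268-95375080, forward strand) encodes membrane-type 2 MMP, which is anchored in the cell membrane. Its normalized counts were 31.1, 74.0, 31.9, 44.7 and 44.6 in EDL, 149.5, 98.8, 101, 190.2 and 143 in psoas and 61.7, 82.8 and 58.5 in soleus, in the order of the replicates. Again the psoas libraries all lay above those of EDL, and here above those of soleus too. The psoas-to-EDL log2 fold change was 1.57 ± 0.28 (SE), with an adjusted p of 0.00354 in the same edgeR test. Without EDL replicate 3 the adjusted p was 0.0112, at a log2 fold change of 1.49, and the call was lost. Within codes T4, T5 and T6 the difference was 0.38, 1.61 and 1.86, and the smallest of these came from T4, which holds EDL replicate 2, the highest EDL library.

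Adamts7 (ENSMUSG00000032363, chr9:90163069-90208071, forward strand) encodes an enzyme that cuts cartilage oligomeric matrix protein. It had normalized counts of 29.0, 25.5, 7.96, 29.4 and 18.9 in EDL, 69.4, 102, 41.2, 92.9 and 45.6 in psoas and 33.1, 25.0 and 27.5 in soleus. The lowest psoas library stood above the highest EDL library and the highest soleus library. The psoas-to-EDL log2 fold change was 1.62 ± 0.35 (SE), with an adjusted p of 0.0083 in edgeR's test. This call was the least stable of the 3: it held in 2 of the 13 fits that left out a library, with log2 fold changes of 1.44 to 1.77 and adjusted p of up to 0.0257. Exons of Adamts7 share 122 bases with Tbc1d2b on the opposite strand, which had a log2 fold change of 0.66, and the strand setting of the counting is not given in the sources used here.

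**Figure D2:**
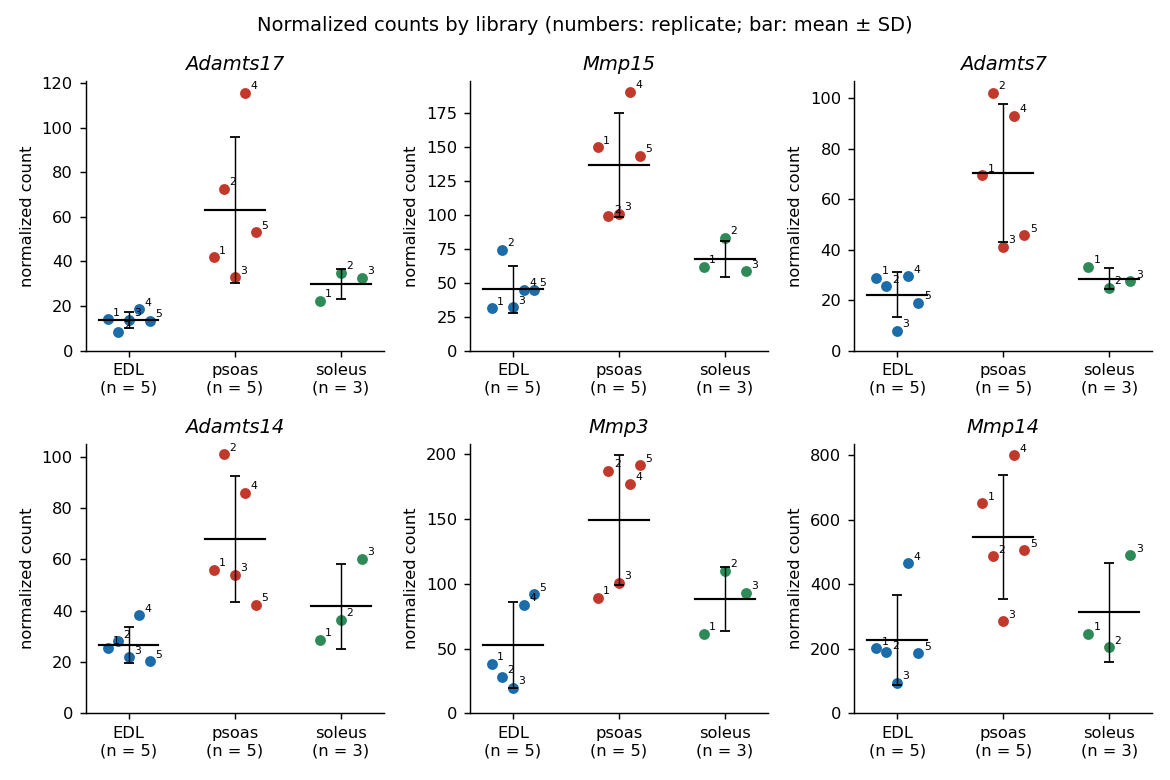
Normalized counts (y axis, linear) of the 5 genes with the lowest p-values between psoas and EDL and of Mmp14, the most abundant membrane-anchored MMP, by muscle (x axis). Points are libraries with their replicate number, and bars are the mean ± SD. The psoas points of Adamts17, Mmp15, Adamts7 and Adamts14 lie above every EDL point, and those of Mmp3 and Mmp14 overlap with EDL.

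Below the called genes came a second tier of proteases at an adjusted p under 0.05 in edgeR's test. Adamts14, which removes the amino-terminal propeptide of procollagen, had normalized counts of 25.5, 28.1, 21.9, 38.1 and 20.3 in EDL and 55.9, 101, 54.0, 86.0 and 42.3 in psoas. Its ranges did not overlap, and the log2 fold change was 1.33 ± 0.32 (SE, adjusted p = 0.0116 in edgeR). In all, 4 of 42 genes (9.52%) had every psoas library above every EDL library, against 6.48% of all genes. Mmp3, stromelysin-1, had 38.3, 28.1, 19.9, 83.9 and 92.0 in EDL and 89.4, 187, 101, 177 and 191 in psoas. Here EDL replicate 5 lay just above psoas replicate 1, and the log2 fold change was 1.51 ± 0.40 (SE, adjusted p = 0.0182 in edgeR). Mmp14, membrane-type 1 MMP and the main activator of the Mmp2 precursor, had 202, 189, 95.6, 466 and 187 in EDL and 652, 488, 286, 801 and 506 in psoas. EDL replicate 4 stood apart from the other 4 EDL libraries and within the range of psoas, and the log2 fold change was 1.26 ± 0.38 (SE, adjusted p = 0.0331 in edgeR). Without that library it was 1.68, with an adjusted p of 0.00666 in edgeR. Adamts15, another proteoglycan-cleaving enzyme, had a log2 fold change of 0.84 ± 0.25 (SE, adjusted p = 0.0321 in edgeR), under the limit on fold change.

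Counts of direction were also made by family, as a description. The psoas-to-EDL log2 fold change was positive for 14 of 15 Mmp genes (median 0.77), 3 of 4 Timp genes (median 0.30), 13 of 18 Adamts genes (median 0.27) and 2 of 5 lysyl oxidase genes (median -0.10). Over the 42 genes, 32 were positive with a median of 0.56, and over all genes tested 51.3% were positive with a median of 0.02. Most of these single differences did not pass the test. The median over the 42 genes was 0.35 to 0.57 in the fits that left out 1 library and fell to 0.30 when only the 31 genes with a mean normalized count of at least 50 were tested.

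**Figure D3:**
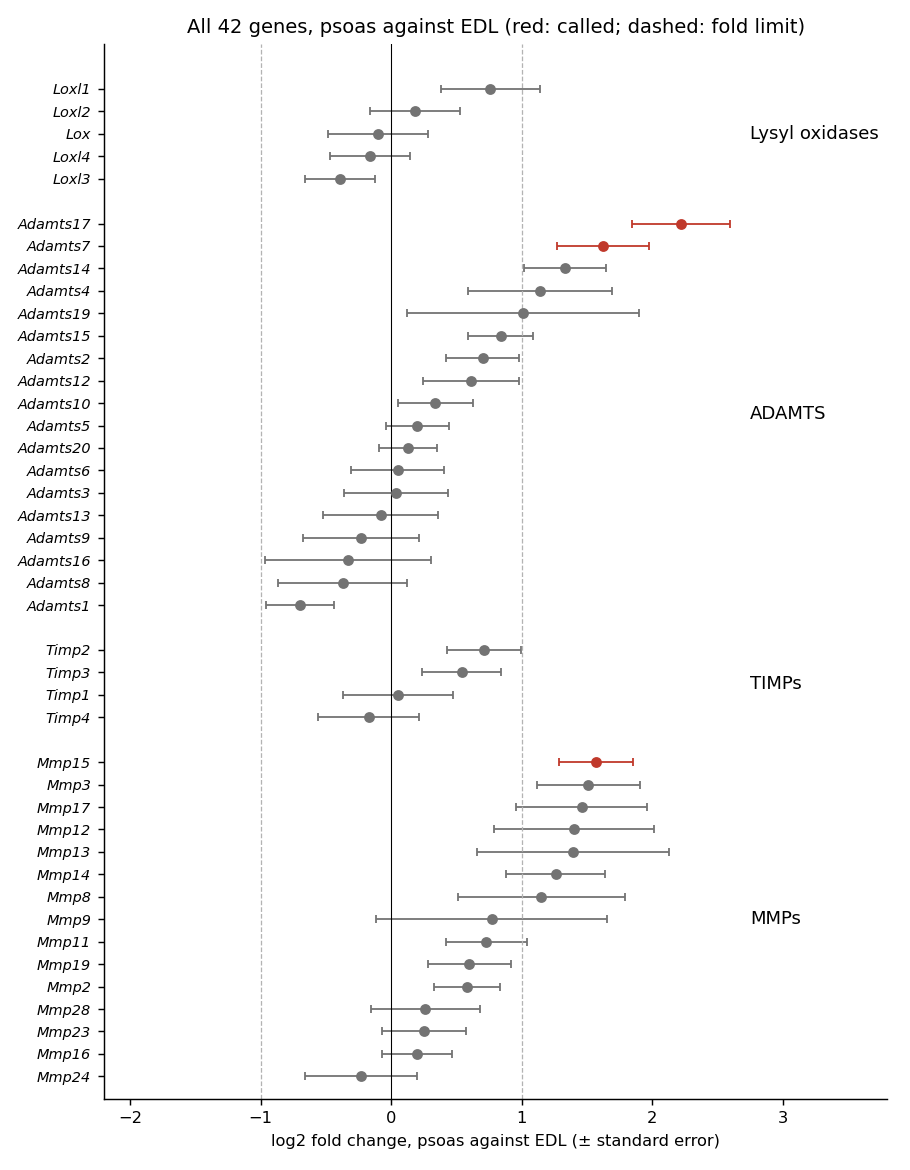
Log2 fold change of psoas against EDL (x axis, ± SE from edgeR) for each of the 42 genes (y axis, by family). Red points are the 3 called genes, and dashed lines mark the limit on the fold change. In the block of Mmp genes 14 of 15 points lie right of 0, while those of the lysyl oxidases lie on both sides.

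Among membrane-anchored MMPs, 4 of 5 had positive log2 fold changes: Mmp15 and Mmp14 as given, Mmp17 with 1.46 ± 0.50 (SE) and Mmp16 with 0.20 ± 0.27. Mmp24 had -0.23 ± 0.43. The adjusted p of Mmp17, Mmp16 and Mmp24 was 0.057, 0.641 and 0.742 in edgeR. For the gelatinases, Mmp2 had normalized counts of 4433, 2974, 2473, 2589 and 2721 in EDL and 4529, 4582, 7091, 3547 and 2918 in psoas. Those ranges overlap, and the log2 fold change was 0.58 ± 0.25 (SE, adjusted p = 0.121 in edgeR). Psoas replicate 3 was the highest of all libraries for Mmp2. Mmp9, the other gelatinase and a product of neutrophils and macrophages, ran from 5.74 to 75.1 in EDL and from 8.24 to 82.1 in psoas, and its coefficient of variation in EDL, 134%, was the largest of the 42 genes there.

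Mmp13, Mmp12, Mmp3 and Mmp8 lie in a cluster of 295972 bases on chromosome 9 (chr9:7272514-7568485 on GRCm38), picked out here after their values were seen. Their log2 fold changes of psoas against EDL were 1.39 ± 0.74, 1.40 ± 0.61, 1.51 ± 0.40 and 1.15 ± 0.64 (SE), and of these Mmp3 alone reached an adjusted p under 0.05 in edgeR. Mmp12, the macrophage metalloelastase, had normalized counts of 97.9, 68.3, 27.9, 100.2 and 6.76 in EDL, 75.5, 364, 62.3, 221 and 89.5 in psoas and 35.2, 11.4 and 17.2 in soleus. Psoas replicate 2 was highest for Mmp12 and also had the highest summed level of 6 macrophage genes, 582 CPM, where the other psoas libraries had 135 to 334 CPM and EDL 132 to 376 CPM. Mmp8, the neutrophil collagenase, had 19.2, 10.2, 7.96, 14.2 and 18.9 in EDL and 8.85, 15.0, 17.4, 20.0 and 99.5 in psoas, and psoas replicate 5 alone lay far above the rest. That library also had the highest summed level of the 5 neutrophil genes in the files, 146 CPM, against 15.7 to 35.9 CPM in the other psoas libraries. The neutrophil genes did not all follow the sum. Among psoas libraries, replicate 5 was highest for S100a8, S100a9 and Retnlg. Its normalized count of Csf3r, 39.0, was below the 42.7 of psoas replicate 2, and its Cxcr2, at 143, was the lowest of psoas. Without psoas replicate 5 the log2 fold change of Mmp8 was 0.09. The part of macrophages and neutrophils in these levels was not tested.

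Of the 4 Timp genes, 0 were called between psoas and EDL. Timp2 had normalized counts of 569, 1232, 683, 993 and 484 in EDL, 1217, 1764, 947, 1485 and 1088 in psoas and 609.5, 1158 and 1102 in soleus. Psoas reached higher, the ranges overlapped, and the log2 fold change was 0.71 ± 0.28 (SE, adjusted p = 0.0926 in edgeR). Timp3, an inhibitor held in the matrix, had 0.54 ± 0.30 (SE, adjusted p = 0.229 in edgeR), and its exons share 1733 bases with Syn3 on the opposite strand. Timp1, the inducible inhibitor, had 145, 103, 59.7, 258 and 134 in EDL and 48.4, 225, 65.0, 194 and 191 in psoas, with a log2 fold change of 0.05 (95% interval -0.78 to 0.87). Timp4 had -0.17 (95% interval -0.92 to 0.59). Both intervals hold differences in either direction.

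Of the 7 proteoglycan-cleaving ADAMTS genes, 4 had positive and 3 negative log2 fold changes, and 0 were called. Adamts1, the most abundant, had normalized counts of 3573, 1516, 2431, 1744 and 2885 in EDL, 1808, 1759.6, 1357, 1728 and 832 in psoas and 1570.4, 2006 and 1761 in soleus. EDL replicates 1, 3 and 5 lay above every psoas library and EDL replicates 2 and 4 within the range of psoas. Its log2 fold change of -0.70 ± 0.26 (SE, adjusted p = 0.0767 in edgeR) was the lowest of the 42 genes. Adamts5, Adamts9 and Adamts20 had 0.20, -0.23 and 0.13. The procollagen proteinases Adamts2, Adamts3 and Adamts14 had 0.70, 0.04 and 1.33. Adamts13, which cuts von Willebrand factor and was the most abundant of the remaining ADAMTS genes, had normalized counts of 409, 705, 641, 176 and 234 in EDL and 297, 771, 490.03, 279.7 and 224 in psoas, with a log2 fold change of -0.08 that changed sign in 7 of the 23 alternative fits. Adamts19, the least abundant of the 42 genes, had 15.3, 3.83, 0, 20.7 and 5.41 in EDL and 67.1, 4.27, 1.83, 13.03 and 7.46 in psoas. Psoas replicate 1 stood far above the rest, and without it the log2 fold change went from 1.01 to -0.52.

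Lysyl oxidases spread widely within each muscle. Lox had normalized counts of 1871, 6242, 2218, 3128 and 2213 in EDL, 4129, 4263, 1914, 1619.8 and 2822 in psoas and 1788, 2990.2 and 1159 in soleus. EDL replicate 2 was the highest of all libraries, and without it the psoas-to-EDL log2 fold change turned from -0.10 to 0.33. Loxl1, which acts on elastin, had 442, 206, 121, 490.1 and 380.1 in EDL and 317, 715, 257, 835 and 652 in psoas, with a log2 fold change of 0.76 ± 0.38 (SE, adjusted p = 0.179 in edgeR). A fit that blocked on the label code gave Loxl1 a value of 1.10, at an adjusted p of 0.00524 in edgeR. Loxl2, Loxl3 and Loxl4 had log2 fold changes of 0.18 (95% interval -0.50 to 0.86), -0.39 (-0.92 to 0.13) and -0.16 (-0.76 to 0.45). Exons of Loxl3 share 535 bases with Htra2 on the opposite strand.

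Soleus was set against EDL to compare a muscle rich in slow-twitch fibers with a fast one. Of the 42 genes, 0 were called in either direction by edgeR's quasi-likelihood test, where 0.978% of all genes were called, and DESeq2's Wald test also called 0, where it called 1.58% of all genes higher and 2.13% lower. At an unadjusted p under 0.05 in edgeR there were 5 genes, 3 higher (Adamts17, Adamts12 and Mmp28) and 2 lower (Mmp8 and Mmp24) in soleus, or 11.9% against 15.1% of all genes. The median log2 fold change over the 42 genes was 0.09, and -0.03 over all genes. Of the 6 adipocyte markers, 3 were called higher in soleus by edgeR, where 0.533% of all genes were called higher. The median log2 fold change of the 6 markers was 2.29, and the part of adipocytes in these values was not tested.

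Adamts17 had a log2 fold change of 1.14 ± 0.41 (SE, adjusted p = 0.177 in edgeR) in soleus against EDL, and all 3 soleus libraries lay above all EDL libraries. Adamts12, a relative of Adamts7, had normalized counts of 336, 263, 59.7, 291 and 204 in EDL and 376, 514 and 469 in soleus. Here too the soleus libraries all stood higher, and the log2 fold change was 0.97 ± 0.42 (SE, adjusted p = 0.277 in edgeR). Mmp28, epilysin, had 25.1, 21.1, 13.9, 78.4 and 67.6 in EDL and 93.9, 62.8 and 91.1 in soleus. EDL replicates 4 and 5 reached the range of soleus, and the log2 fold change was 1.02 ± 0.47 (SE, adjusted p = 0.322 in edgeR). Exons of Mmp28 share 466 bases with the opposite-strand gene 1700020L24Rik.

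Lower in soleus than in every EDL library were Mmp8 and Mmp24. Mmp8 had normalized counts of 4.55, 2.14 and 0 in soleus, from at most 11 counts in a library, and the log2 fold change against EDL was -2.34 ± 0.88 (SE, adjusted p = 0.193 in edgeR). Mmp24, membrane-type 5 MMP, had 9.79, 8.29, 7.96, 9.80 and 10.8 in EDL and 3.72, 5.71 and 1.72 in soleus, from at most 23 counts in a library. Its log2 fold change was -1.22 ± 0.54 (SE, adjusted p = 0.291 in edgeR), and its exons share 637 bases with BC029722 on the opposite strand. Mmp12 had -1.48 ± 0.77 (SE, adjusted p = 0.396 in edgeR) with overlapping ranges. Counts in groups that did not overlap were 2 higher and 2 lower (4.76% each), where 5.33% and 5.72% of all genes were.

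The last comparison, soleus against psoas, put a slow muscle beside the other fast one. Most protease genes had negative log2 fold changes, but 0 of 42 genes were called by edgeR's quasi-likelihood test, where 0.0762% of all genes were called in either direction. At an unadjusted p under 0.05 in edgeR there were 8 of 42 genes, all lower in soleus, or 19.0%, where 6.48% of all genes were lower at that p. They were Mmp8, Mmp12, Adamts7, Mmp15, Adamts17, Adamts15, Mmp13 and Adamts4. DESeq2's Wald test called Mmp8 and Mmp12 lower, where it called 0.445% of all genes lower. The log2 fold change was negative for 31 of 42 genes and for 14 of 15 Mmp genes, with medians of -0.29 and -0.75, and the median of all genes was -0.03.

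Mmp8 had the lowest p of the 42 genes, with a log2 fold change of soleus against psoas of -3.49 ± 0.90 (SE, adjusted p = 0.117 in edgeR). The highest soleus library, at 4.55 normalized counts, was below the lowest psoas library, at 8.85. Without psoas replicate 5 the log2 fold change was -2.44. Mmp12 had -2.88 ± 0.81 (SE, adjusted p = 0.15 in edgeR), and its 3 soleus libraries, 11.4 to 35.2, were under the lowest psoas library at 62.3. Adamts7 and Mmp15 had -1.29 ± 0.41 and -1.0 ± 0.33 (SE), with adjusted p of 0.21 and 0.225 in edgeR, and these too had no overlap. So 4 of 42 genes (9.52%) had every soleus library below every psoas library, against 5.19% of all genes. Adamts17 and Adamts15 had -1.07 ± 0.42 and -0.69 ± 0.29 (SE), with overlapping ranges.

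**Figure D4:**
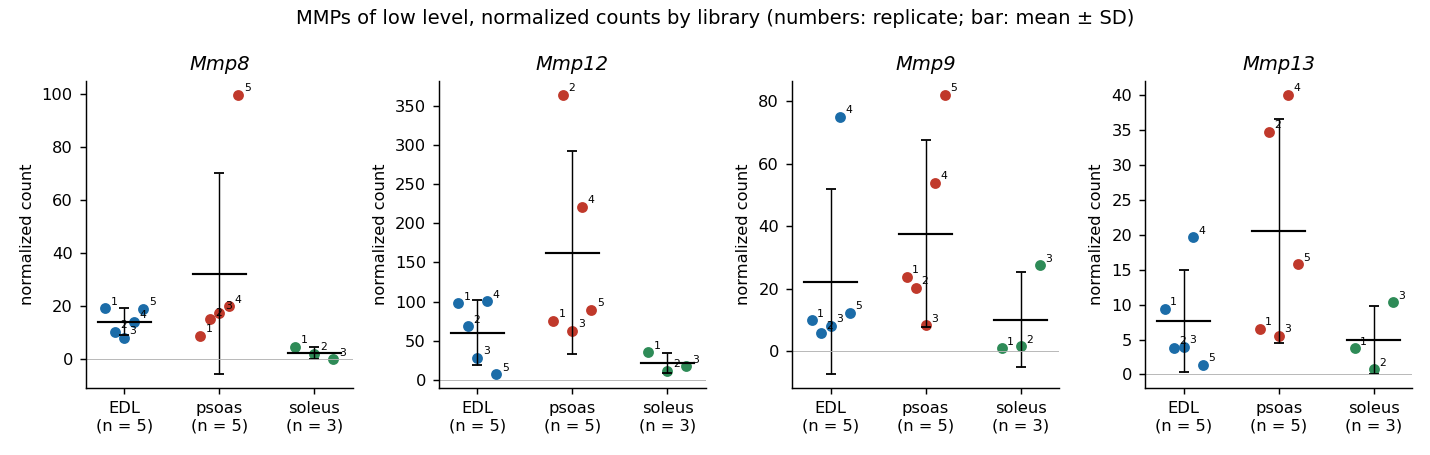
Normalized counts (y axis, linear) of Mmp8, Mmp12, Mmp9 and Mmp13 by muscle (x axis). Points are libraries with their replicate number, and bars are the mean ± SD. The 3 soleus points of Mmp8 and Mmp12 lie below all psoas points, and single libraries carry the psoas mean of Mmp8 (replicate 5) and the EDL mean of Mmp9 (replicate 4).

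Markers of macrophages and neutrophils were read beside these values. All 6 macrophage genes had negative log2 fold changes of soleus against psoas (median -0.76), as did all 5 neutrophil genes (median -1.0). By edgeR 0 of them were called, where 0.0762% of all genes were called in either direction. Summed neutrophil levels were 9.75 to 22.6 CPM in soleus and 15.7 to 146 in psoas, and summed macrophage levels 170 to 256 and 135 to 582 CPM, which overlap. The neutrophil gene S100a8 had normalized counts of 7.45, 12.9 and 20.6 in soleus and 28.9, 89.7, 98.9, 116 and 905 in psoas. The ranges of the neutrophil genes S100a9, Retnlg and Csf3r overlapped between soleus and psoas. The part of these cells in the lower Mmp8 and Mmp12 levels was not tested.

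Of the 4 Timp and 5 lysyl oxidase genes, 0 were called between soleus and either fast muscle. For soleus against psoas the 4 Timp genes had log2 fold changes of -0.50, -0.43, -0.09 and 0.41, and against EDL -0.45, 0.27, 0.45 and 0.24, in the order Timp1 to Timp4. Timp1 was nearly level in soleus, at 98.9, 103 and 103 normalized counts. Timp3 was not, at 461, 1377 and 442, with replicate 2 apart, and without that library its log2 fold change against EDL was -0.30. For Lox the log2 fold change was -0.66 ± 0.45 (SE) against EDL and -0.56 ± 0.45 against psoas. Loxl1 to Loxl4 lay between -0.27 and 0.60 against EDL and between -0.29 and 0.42 against psoas. The adjusted p of all 9 genes was at least 0.555 in edgeR in these 2 comparisons.

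By mean level, psoas was the highest muscle for 28 of the 42 genes, EDL for 8 and soleus for 6. EDL was lowest for 20, soleus for 15 and psoas for 7. The most frequent order was psoas, soleus, EDL, in 16 genes, followed by psoas, EDL, soleus in 12. These orders, and the counts of lowest libraries below, were made for the 42 genes only. Whether they are particular to these genes was not tested. Only Adamts17, Mmp15 and Adamts7 were called between any pair of muscles, so most of these orders are a description of means. A missed call does not show that the muscles are equal. The coefficient of variation between libraries of 1 muscle had a median of 42.8% in EDL, 37.5% in psoas and 27.7% in soleus over the 42 genes. Single libraries moved many genes together. EDL replicate 3 was the lowest EDL library for 25 of 42 genes, psoas replicate 3 the lowest of psoas for 23, and soleus replicate 1 the lowest of soleus for 23. Replicates 3 of EDL and psoas share the age of 42 days and the code T5, and the part of age or code in this was not tested.

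Genes that act with these enzymes were taken from 4 lists, chosen with earlier results of these data known. Of 11 tested activators and members of the plasminogen system, 1 was called higher in psoas and 2 were called lower there. Lrp1, a receptor that takes up proteases and their inhibitor complexes, had normalized counts of 2938, 4453, 1601, 3850.02 and 2732 in EDL and 8135, 12380.3, 7928, 7939 and 6751 in psoas. The ranges did not overlap, and the log2 fold change was 1.47 ± 0.27 (SE, adjusted p = 0.00375 in edgeR). Bsg, basigin, which induces MMPs in neighbouring cells, had 3972, 5272, 8719.9, 3305 and 4160.3 in EDL and 1315, 1952, 2127, 2077 and 2083 in psoas. Psoas was lower throughout, with a log2 fold change of -1.42 ± 0.26 (SE, adjusted p = 0.00355 in edgeR). Serpine2, protease nexin-1, had -1.38 ± 0.28 (SE, adjusted p = 0.00628 in edgeR) with overlapping ranges. Its call held in 6 of the 13 fits that left out a library, and that of Lrp1 in 11, while that of Bsg held in all 13.

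Of 7 ADAMTS-like proteins and papilin, which resemble ADAMTS enzymes without the protease, 0 were called. The lowest p-values were those of Thsd4, which binds fibrillin, with 1.03 ± 0.32 (SE, adjusted p = 0.0358 in edgeR), and Adamtsl1 with 0.78 ± 0.31. Of 12 genes of procollagen maturation, 1 was called, lower in psoas: Pcolce2, an enhancer of procollagen C-proteinase, had 408, 567, 585, 1073 and 810.2 normalized counts in EDL and 179.8, 283, 228, 339.6 and 319.95 in psoas, and a log2 fold change of -1.35 ± 0.28 (SE, adjusted p = 0.00628 in edgeR). The call of Pcolce2 held in 7 of the 13 fits that left out a library. P4ha2, a prolyl hydroxylase subunit, had -0.76 ± 0.21 (SE, adjusted p = 0.0239 in edgeR). Of 9 genes of elastic fibers and large proteoglycans, 1 was called: Comp, cartilage oligomeric matrix protein, a substrate of Adamts7, was lower in psoas with 165, 849, 401, 384 and 621 normalized counts against 1662, 2577, 1396, 2245 and 3377 in EDL. Its log2 fold change was -2.22 ± 0.40 (SE, adjusted p = 0.00355 in edgeR), and the call held in all 13 such fits. Comp is abundant in tendon, and 4 of 6 tendon markers were also called lower in psoas, where 2.5% of all genes were called lower. Summed levels of these markers were 404 to 903 CPM in psoas and 783 to 1200 CPM in EDL. In soleus the tendon sums were 390 to 540 CPM, and Comp had 1459, 2767 and 1102 normalized counts, above every psoas library. Gene by gene, 5 of the 6 tendon markers had positive log2 fold changes of soleus against psoas (median 0.91), and 0 were called by edgeR. The log2 fold change of Comp in soleus against psoas was 1.89 ± 0.44 (SE, adjusted p = 0.077 in edgeR). The part of tendon in this was not tested. Fbln5, which assembles elastic fibers, had 0.50 ± 0.21 (SE) in psoas and 0.89 ± 0.24 in soleus against EDL. In the 2 comparisons with soleus, 0 genes of the 4 lists were called by edgeR. Few genes of any kind were: 0.978% of all genes in soleus against EDL and 0.0762% in soleus against psoas.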

How the data were processed

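Whole EDL, psoas and soleus muscles of *mdm* mice gave 13 stranded total-RNA libraries. Per the study's methods and the submitters' notes, the authors trimmed low-quality libraries with Trimmomatic 0.32, aligned reads to GRCm38.p4 with TopHat 2.1.1 and counted them per gene with GenomicAlignments, and the overlap mode and strand setting are not given in the sources used here. The authors deposited these read counts and, as a second signal per gene, the count divided by the library's DESeq2 size factor (normalized count), after removing marginally expressed genes.

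Here, edgeR 4.0.16 in R 4.3.3 fitted the counts of all 13 libraries with TMM normalization and muscle as the only factor. The study's own model also had a term for the run, and whether the label codes mark runs is not given in the sources used here. The filter kept genes whose normalized count reached 10 in 3 or more libraries, the quasi-likelihood test was run on them, and p-values were adjusted by Benjamini-Hochberg over all 17069. Standard errors are the log2 fold change divided by the root of F, and intervals cover 95%. Alternatives used DESeq2 1.42.0, limma 3.58.1 on log2 of the normalized count plus 1, other filters, blocks, an age term and leaving out each library. Differences within label codes are of mean log2 CPM with a prior count of 2. The code was tested on simulated data. Of 23 within-muscle library pairs, 0 were duplicates (smallest chi-square per degree of freedom 53.1).

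Symbols, positions and exon lengths came from GENCODE mouse release M21 on GRCm38, promoter windows from RefSeq on GRCm38.p6. Members, gene lists and tests were chosen with earlier results of these data known. Genes given in full were those called, the 6 with the lowest p in each comparison, the highest per kilobase in each class, and all Timp and lysyl oxidase genes. From each list of partner genes, those called and the 2 with the lowest p were named. Others named were chosen after their values were seen. Deviations of same-numbered EDL and psoas libraries from their muscle means correlated by 0.407, 0.370, 0.316, 0.289 and 0.371 for replicates 1 to 5, so the numbers were taken as pairs, a hint from the data rather than the design. The ages of replicate 1 differ (38 and 29 days), so its libraries do not share a mouse. Their correlation was still the highest of these, so the correlation does not identify a shared mouse. Soleus numbers did not pair as a set: replicates 1 to 3 correlated by 0.115, 0.421 and -0.162 with EDL and by 0.159, 0.141 and -0.302 with psoas. Only replicate 2 with EDL and replicate 1 with psoas correlated best with their own number. The replicate block on all 13 libraries still used the soleus numbers.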

Additional observations from a re-analysis of the deposited data

Results flagged for a closer look

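Dixon's test was run on the normalized counts of 84 groups of 5 libraries, 1 per gene in EDL and in psoas. In 9 groups the highest library stood apart from the other 4. The test's chance rate of about 1 in 20 holds for normally distributed values. Counts that are skewed to high values can exceed it, so the 9 groups are a description and are not set against chance. In EDL, Lox was at 6242 normalized counts in replicate 2, where the other libraries had 1871 to 3128. Mmp2 was at 4433 in EDL replicate 1, against 2473 to 2974 in the others, and Adamts6 at 181 in the same library, against 43.3 to 81.7. Mmp14 was at 466 in EDL replicate 4, against 95.6 to 202 in the others, and Mmp9 at 75.1 in the same library, against 5.74 to 12.2. In psoas, Mmp8 was at 99.5 in replicate 5, against 8.85 to 20.0 in the others. That library also had the highest summed level of neutrophil genes, but not the highest level of each of them. Adamts19 was at 67.1 in psoas replicate 1, against 1.83 to 13.03 in the others. Adamts8 was at 228 in psoas replicate 3, against 34.5 to 82.2, and Adamts9 at 543 in psoas replicate 2, against 179 to 278. No single library stood apart for all 9. The part of any library in these values was not tested further.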

How the results depend on the processing

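With EDL and psoas paired by replicate number, the block raised the count of genes higher in psoas than in EDL from 3 to 5. EDL and psoas replicate 1 do not share a mouse. With soleus left out of the blocked fit, an alternative chosen after seeing the data, that count was 6. The count was also 6 with DESeq2's Wald test and in a fit blocked on the label code, 7 at an adjusted p under 0.05 with any fold change, and 1 with the filter at a mean normalized count of 50, which does not test Adamts17 or Adamts7. Leaving out 1 library gave 1 to 4 genes, with 1, Adamts17, without EDL replicate 3. Adamts7 also missed the call with only EDL and psoas in the fit (adjusted p = 0.0161 in edgeR) and with age as a covariate (adjusted p = 0.0143 in edgeR). For soleus against psoas, DESeq2 called 2 genes lower. The other counts stayed at 0 in every fit run, leaving out each library included (0 to 0), and the replicate block changed no other count of calls.

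In at least 1 fit that left out a library, the sign of the log2 fold change turned for 12 of the 42 genes in psoas against EDL, 13 in soleus against EDL and 14 in soleus against psoas, and 0 of these genes was called between psoas and EDL. For psoas against EDL, Adamts19 turned most, from 1.01 to -0.52 without psoas replicate 1 (-0.52 to 1.46 over the left-out libraries), to -0.36 with age as a covariate and to -0.08 when blocked on the label code. The other ranges over left-out libraries were -0.43 to 0.18 for Adamts13, -0.83 to 0.05 for Adamts16, -0.03 to 0.26 for Adamts20, -0.19 to 0.17 for Adamts3, -0.12 to 0.45 for Adamts6, -0.54 to 0.19 for Adamts9, -0.25 to 0.33 for Lox, -0.02 to 0.44 for Loxl2, -0.31 to 0.03 for Loxl4, -0.17 to 0.37 for Timp1 and -0.39 to 0.13 for Timp4. Blocked on the label code, Adamts13, Adamts16, Adamts3 and Adamts9 turned to 0.07, 0.20, -0.08 and 0.23, and with age as a covariate Adamts13, Adamts3 and Adamts6 to 0.00, -0.05 and -0.08. Adamts3, Timp1 and Timp4 turned to -0.05, -0.04 and 0.01 with limma. Adamts3 and Timp1 turned to -0.05 and -0.01 with the replicate block, and to -0.02 and -0.03 with that block on EDL and psoas only.

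Of the Timp and lysyl oxidase genes in soleus against EDL, Timp3 ran from -0.30 to 0.73 and Loxl2 from -0.31 to 0.15 over left-out libraries, Loxl2 turned to 0.01 with limma, and with the replicate block Loxl2, Timp1 and Timp4 turned to 0.44, 0.03 and -0.02. In soleus against psoas, Timp3 ran from -0.86 to 0.17, Loxl1 from -0.36 to 0.03 and Loxl3 from -0.03 to 0.34, Loxl3 turned to -0.15 when blocked on the label code, and with the replicate block Loxl1, Loxl2 and Timp1 turned to 0.32, 0.21 and 0.04. The cause was not tested. Genes at a few counts per library, such as Mmp8, Mmp13, Mmp24 and Adamts19, and 3 libraries in soleus limit what could be detected.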
